A study of Mus musculus with 36 samples.

Results

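Wild-type (WT) osteoblast cultures (WT OB) were compared with WT osteoclast cultures (WT OC), the bone-forming and the bone-resorbing cells of the skeleton. The members were the libraries titled as WT osteoblasts 1 to 6 and WT osteoclasts 1 to 6, which are 12 of the 36 libraries of the series. The series profiles total RNA by sequencing in 3 kinds of mouse culture from WT and null animals. All the libraries used here carry the same label, wild-type control, and come from mice aged 20 weeks. WT OB grew out of collagenase-treated chips of leg bone over about 6 weeks and then spent 18 days in medium with 2 mM β-glycerophosphate and 50 µg/ml ascorbate, which feed mineral and collagen formation. WT OC began as flushed marrow, expanded for 3 days with 100 ng/ml M-CSF (a macrophage growth factor) and then kept for 5 days with RANK-L at 50 ng/ml on top of M-CSF at 30 ng/ml; RANK-L is the signal that turns macrophages into osteoclasts. Their precursors, bone marrow macrophages held for the same 5 days in M-CSF without RANK-L (WT BMM, 6 libraries), are given as a reference level for osteoclast and macrophage genes. The labels do not say whether the 6 libraries of a group are 6 animals, so p-values measure only the spread between these libraries. Tissue, culture time and medium all differ between WT OB and WT OC and cannot be told apart from cell type.

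Osteoblasts arise from mesenchymal progenitors under the transcription factors Runx2 and Sp7. They lay down type I collagen and load it with proteins that bind or guide calcium phosphate. Osteoclasts arise when macrophages fuse under M-CSF and RANK-L. The fused cell seals itself to bone with a ring of actin podosomes, pumps acid through a vacuolar proton ATPase (V-ATPase) and secretes cathepsin K and other proteases. Each cell also signals to the other: osteoblast-lineage cells make RANK-L and its decoy receptor, and osteoclasts make factors that act on osteoblasts.

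The promoters of 4 genes that stand for the 2 programs are shown, and the levels of these genes are given below. Each sequence is the 250 bases before the RefSeq transcription start (GRCm38.p6), written 5′ to 3′ on the gene's strand. Bglap (chr3:88384467-88384716, minus strand) encodes osteocalcin. Ibsp (chr5:104299037-104299286, plus strand) encodes bone sialoprotein. Ctsk (chr3:95498960-95499209, plus strand) encodes cathepsin K, and Acp5 (chr9:22130599-22130848, minus strand) the tartrate-resistant acid phosphatase. For Acp5 the window before the start of Acp5-202 is shown, its most abundant transcript in both groups. Capitals mark every match, on either strand, to TGTGGT (RUNX factors), TGACTCA (AP-1), TCACGTG and TCATGTG (MITF and its relatives), TGGAAA (NFAT) and GAGGAAG (the PU.1 type of ETS factor).
Bglap: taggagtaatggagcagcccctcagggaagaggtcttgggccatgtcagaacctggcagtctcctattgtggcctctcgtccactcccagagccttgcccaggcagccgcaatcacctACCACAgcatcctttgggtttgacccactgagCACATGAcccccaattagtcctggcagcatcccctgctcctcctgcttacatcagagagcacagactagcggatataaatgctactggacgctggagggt
Ibsp: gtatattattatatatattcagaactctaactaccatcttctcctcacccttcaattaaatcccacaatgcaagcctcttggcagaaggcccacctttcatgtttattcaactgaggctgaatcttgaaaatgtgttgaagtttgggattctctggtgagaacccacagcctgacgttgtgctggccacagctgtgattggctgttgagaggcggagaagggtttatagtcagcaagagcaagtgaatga
Ctsk: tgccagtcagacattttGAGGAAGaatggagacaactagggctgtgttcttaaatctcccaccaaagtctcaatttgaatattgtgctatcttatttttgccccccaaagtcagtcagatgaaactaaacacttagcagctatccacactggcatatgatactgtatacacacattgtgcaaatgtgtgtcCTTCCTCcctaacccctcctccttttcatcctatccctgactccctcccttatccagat
Acp5: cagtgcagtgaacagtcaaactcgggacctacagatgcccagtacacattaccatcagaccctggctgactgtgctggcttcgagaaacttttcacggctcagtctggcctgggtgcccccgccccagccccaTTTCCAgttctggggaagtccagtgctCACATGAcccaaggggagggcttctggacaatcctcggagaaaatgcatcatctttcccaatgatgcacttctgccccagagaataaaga

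In Bglap the capitals are a RUNX match at positions -132 to -127 from the start and a TCATGTG match at -100 to -94. In Acp5 they are an NFAT match at -117 to -112 and a TCATGTG match at -90 to -84, and in Ctsk GAGGAAG matches at -233 to -227 and -59 to -53. The Ibsp window holds none of these letters. Such matches are common: among 32851 RefSeq windows of this length, 14.0% hold TGTGGT, 18.6% TGGAAA, 10.6% GAGGAAG and 3.25% TCATGTG. Windows of genes more than 2-fold higher in WT OB held TGTGGT in 10.8% of cases and those of genes more than 2-fold higher in WT OC in 12.5%, against 10.8% for all genes tested. GAGGAAG stood in 11.2% and 12.7% of them, against 10.9%, and TCATGTG in 1.92% and 2.36%, against 1.82%. No test was made of these shares.

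Libraries held between 16582351 and 21601489 estimated counts. Levels are given as CPM (counts scaled to library size by the trimmed mean of M-values, TMM), as the lowest to the highest of the 6 libraries with the median. Fold changes are log2 of WT OB over WT OC from edgeR's quasi-likelihood fit, so that positive values are higher in WT OB. A gene is called higher in a group where its Benjamini-Hochberg adjusted p over all genes tested is below 0.05. Of 13462 genes tested, 11217 (83.3%) were called: 6068 (45.1%) higher in WT OB and 5149 (38.2%) higher in WT OC. A fold change tested to exceed 2 was found for 4447 genes (33.0%), of which 3065 (22.8% of those tested) were higher in WT OB and 1382 (10.3%) in WT OC. For 6936 genes (51.5%) the 95% interval lay within 2-fold in either direction, and these are described as held within 2-fold. The first principal component of log2 CPM held 95.6% of the variance and separated the groups. WT OB replicate 1 and WT OC replicate 4 lay farthest from their groups on the second, which held 0.772%. The groups are bulk cultures, in which fewer cells of a type and less RNA per cell cannot be told apart.

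Type I collagen, the main protein of bone, was far higher in WT OB. Col1a1 (chr11:94936224-94953042 in GRCm38) stood at 33515 to 49231 CPM (median 35133) in WT OB and at 7.68 to 9.82 CPM (median 8.09) in WT OC (log2 fold change 12.16, SE 0.15, adjusted p = 8.81e-20). Its partner chain Col1a2 (chr6:4504814-4541544) stood at 10239 to 15403 CPM (median 11126) and at 0.0456 to 0.735 CPM (median 0.138). The lowest WT OB library exceeded the highest WT OC library by more than 3 orders of magnitude for both chains. Per length Col1a1 stood at 7805 to 11759 TPM (median 8347) in WT OB, where TPM is transcript abundance per length, summing to the same total in each library. Col3a1, which encodes the chain of type III collagen, was at 9366 to 12620 CPM (median 11641) in WT OB and at no more than 5 counts in any WT OC library. All 7 fibrillar and fibril-associated collagens of the list were called higher in WT OB, and all 7 by more than 2-fold. Over all genes tested these shares were 45.1% and 22.8%. The list's median log2 fold change was 15.65, or 12.55 with the 3 genes at or under 3 counts in every WT OC library placed at that floor, beside 0.08 for all genes tested.

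The enzymes that prepare collagen followed the same direction: 17 of 17 were called higher in WT OB, 16 by more than 2-fold (list median 6.77). Over all genes tested these shares were 45.1% and 22.8%. Serpinh1, the collagen-specific chaperone HSP47, stood at 6606 to 7655 CPM (median 7266) in WT OB and 0.398 to 1.67 CPM (median 0.68) in WT OC (log2 fold change 12.94, SE 0.19, adjusted p = 2.4e-17). Lox, the oxidase that starts collagen cross-linking, stood at 3878 to 4297 CPM (median 4020) and 16.9 to 22.3 CPM (median 17.7) (log2 fold change 7.78, SE 0.08, adjusted p = 7.35e-22). P4ha1, a catalytic subunit of prolyl 4-hydroxylase, was at 569 to 801 CPM (median 733) and 139 to 157 CPM (median 147). Its isoenzyme P4ha2 was at 625 to 819.9 CPM (median 729.5) and 19.8 to 22.7 CPM (median 21.4). The prolyl hydroxylase genes were thus expressed in both cultures at unequal levels, whereas Serpinh1 was near 0 in WT OC. Plod1, a lysyl hydroxylase, had the smallest difference of the list (333 to 372 against 174 to 221 CPM, log2 fold change 0.87) and was held within 2-fold. Plod2, the lysyl hydroxylase of the collagen telopeptides, ranged from 351 to 1069 CPM (median 843) in WT OB, with replicate 1 lowest, and stood at 0.351 to 2.12 CPM (median 0.92) in WT OC. Reads of Ppib (53.1% of its 31-base words shared with other genes) and Loxl2 (46.2%) cannot be assigned to them with certainty.

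Most genes for proteins of the mineralizing matrix that passed the filter on low counts were higher in WT OB. Ibsp (chr5:104299171-104311469), whose bone sialoprotein binds hydroxyapatite and integrins, reached 11503 to 18328 CPM (median 14648) in WT OB and at most 5 counts in a WT OC library. Per length its level in WT OB was 8422 to 13414 TPM (median 10561). Sparc, which encodes osteonectin, stood at 7049 to 9739 CPM (median 8064) and at no more than 8 counts in WT OC. Spp1 encodes osteopontin, which both bone cells and macrophages secrete. It was at 5187 to 12616 CPM (median 8984) in WT OB, 1262 to 1689 CPM (median 1578) in WT OC and 4435 to 6793 CPM (median 5109) in WT BMM (log2 fold change 2.55, SE 0.21, adjusted p = 2.77e-07 for WT OB over WT OC). WT OB and WT OC did not overlap for Spp1, and WT BMM reached into the range of WT OB. Osteocalcin was likewise found in WT OB: Bglap2 (chr3:88377736-88378699) stood at 15.7 to 45.8 CPM (median 30.2) in WT OB and at 0 counts in all 6 WT OC libraries, at least 182-fold higher against a floor of 3 counts per library. Per length Bglap2 stood at 78.8 to 223 TPM (median 150.3), below Ibsp in every library. Bglap, whose promoter is printed above, stood at 9.08 to 23.3 CPM in WT OB and at most 0.0525 CPM in WT OC. Bglap and Bglap2 are near-identical copies (62.9% and 95.2% of their 31-base words are found in other genes), so the split between them is uncertain. Mgp, an inhibitor of calcification, was at 135 to 187 CPM (median 172) in WT OB. The member called higher in WT OC was Fam20c, the kinase that phosphorylates secreted matrix proteins, at 53.9 to 76.4 CPM (median 59.8) in WT OB and 166 to 193 CPM (median 178) in WT OC (log2 fold change -1.50, SE 0.07, adjusted p = 1.34e-12). Of the list's 10 genes, 8 passed the filter, with 7 called higher in WT OB and 1 in WT OC, all by more than 2-fold. These counts stand beside 22.8% and 10.3% of all genes tested. Of the genes of late, matrix-embedded cells, Dmp1 was at 1.4 to 6.3 CPM (median 1.79) in WT OB. Mepe, at most 0.437 CPM in WT OB and 0 in WT OC, and Phex, at 0.143 to 0.524 CPM in WT OB and 0.473 to 1.39 CPM in WT OC, did not pass the filter. With no filter 2 members were called higher in WT OC.

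The genes that set the supply of phosphate and pyrophosphate were divided. Alpl (chr4:137741733-137796384), the tissue-nonspecific alkaline phosphatase that marks osteoblasts, stood at 163 to 416 CPM (median 174) in WT OB, with replicate 6 highest, and at 0 counts in every WT OC and WT BMM library, at least 1433-fold higher than in WT OC. Enpp1, which makes pyrophosphate, was at 221 to 302 CPM (median 279.8) in WT OB and 8.17 to 9.55 CPM (median 8.68) in WT OC (log2 fold change 4.92, SE 0.09, adjusted p = 1.36e-18). Smpd3, a sphingomyelinase needed for mineralization, was at 3.67 to 17.9 CPM (median 7.93) and 0.398 to 0.945 CPM (median 0.673). These 3 were called higher in WT OB by more than 2-fold. The other 4 of the 7 were called higher in WT OC. Of all genes tested 45.1% were called higher in WT OB and 38.2% in WT OC. Phospho1, a phosphatase of matrix vesicles usually read as a marker of mineralizing cells, stood at 11.9 to 22.9 CPM (median 15.5) in WT OB, 136 to 173 CPM (median 163) in WT OC and 0.6 to 0.972 CPM (median 0.782) in WT BMM (log2 fold change -3.32, SE 0.13, adjusted p = 1.89e-12 for WT OB over WT OC). This value is uncertain: 87.1% of the 31-base words of Phospho1 also occur in transcripts of other genes, and it overlaps Abi3 on the other strand and Zfp652 on its own. Abi3 had medians of 32.3, 61.5 and 32.7 CPM in WT OB, WT OC and WT BMM, and Zfp652 of 46.5, 42.7 and 83.0 CPM. Whether reads of these neighbours enter the Phospho1 value was not tested. The pyrophosphate exporter gene Ank (log2 fold change -1.14) and the phosphate carrier genes Slc20a1 (-0.57) and Slc20a2 (-0.60) differed by less, and the Slc20a1 ranges overlapped.

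Small leucine-rich proteoglycans bind collagen and set fibril width. They were called higher in WT OB in 9 of 9 cases, all by more than 2-fold, beside 22.8% of all genes tested. The list median was 13.02, or 12.25 with 3 genes at the floor. Lum, which encodes lumican, stood at 1776 to 3040.4 CPM (median 2780.5) in WT OB, and Dcn, which encodes decorin, at 1209 to 2006 CPM (median 1792). Bgn, which encodes biglycan, was at 1320.4 to 1534 CPM (median 1458) in WT OB and 0.0996 to 0.606 CPM (median 0.249) in WT OC (log2 fold change 12.24, SE 0.14, adjusted p = 2.13e-21). All 9 together summed to at most 1.82 CPM in any WT OC library.

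The transcription factors that define osteoblasts were higher in WT OB, and Runx2 alone among the 3 described first was also measurable in WT OC. Runx2 (chr17:44495987-44814797), the master regulator of the lineage, stood at 22 to 34.2 CPM (median 25.1) in WT OB, 4.73 to 5.88 CPM (median 5.36) in WT OC and 1.85 to 3.15 CPM (median 2.83) in WT BMM (log2 fold change 2.35, SE 0.12, adjusted p = 2.23e-12 for WT OB over WT OC). Sp7, which encodes osterix and acts after Runx2, was at 18 to 35.4 CPM (median 22.3) in WT OB and had at most 2 counts in any WT OC library. Dlx5, a homeobox gene of the lineage, was at 6.95 to 13.1 CPM (median 7.71) and at 0 counts in WT OC. Prrx1, a factor of limb mesenchyme, was at 166 to 249 CPM (median 223) and 1.64 to 2.23 CPM (median 2.03) (log2 fold change 6.75, SE 0.12, adjusted p = 7.66e-19). Sox9, known from cartilage, was at 93.8 to 156 CPM (median 121) and 0.158 to 0.468 CPM (median 0.298) (log2 fold change 8.53, SE 0.18, adjusted p = 8.22e-17). Of 13 listed factors 9 passed the filter and 8 were called higher in WT OB, beside 45.1% of all genes tested. Atf4, a stress and amino-acid response factor that osteoblasts also use, stood at 74.6 to 89.1 CPM in WT OB and 79.7 to 91.9 CPM in WT OC, overlapping (log2 fold change -0.11, adjusted p = 0.0844). It was called higher in WT OC without WT OB replicate 2 (-0.13) or WT OC replicate 6 (-0.14).

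**Figure D1:**
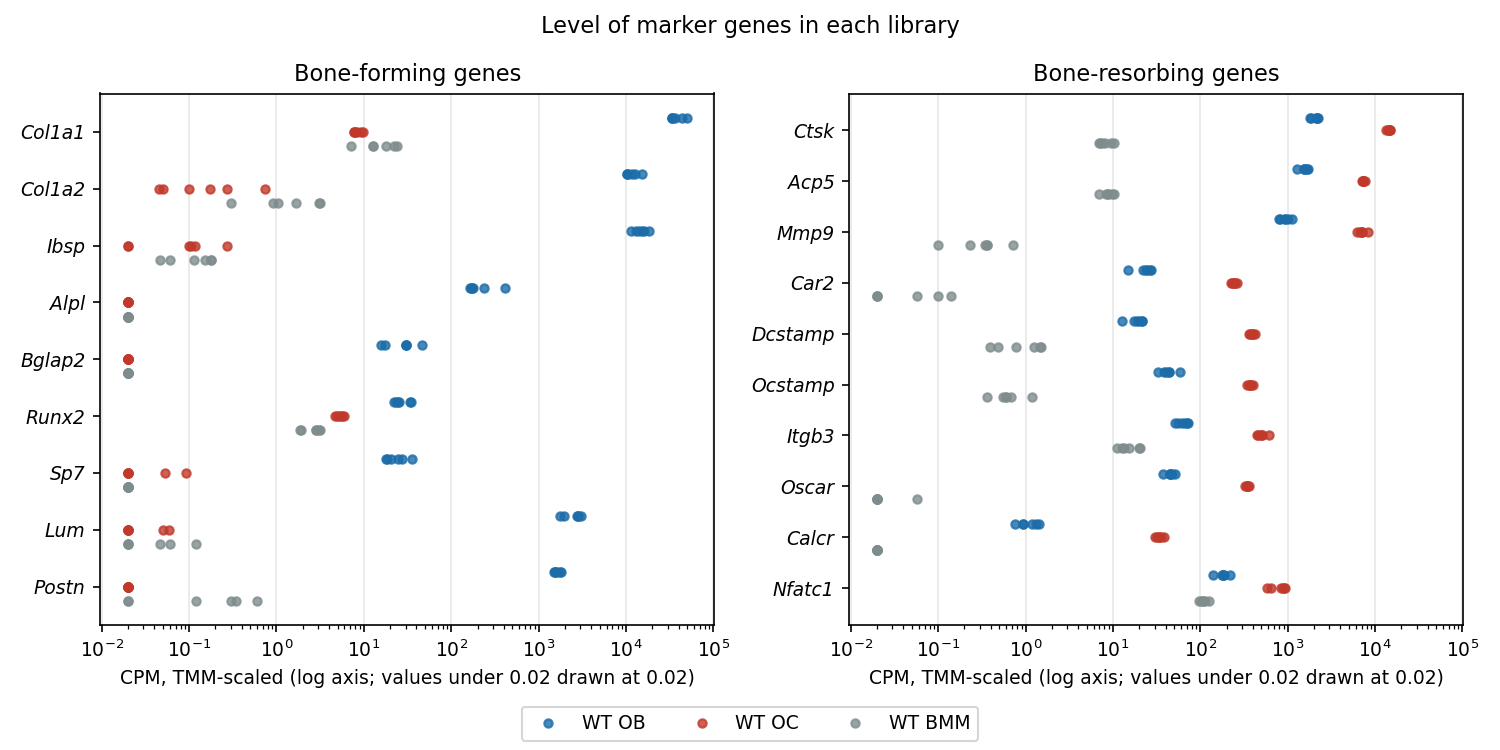
Level of 9 bone-forming genes (left) and 10 bone-resorbing genes (right) in CPM on a log axis, one point per library, for WT OB, WT OC and WT BMM. Every bone-forming gene drawn is higher in all 6 WT OB libraries than in any WT OC library, and every bone-resorbing gene drawn is highest in WT OC and is also higher in each WT OB library than in any WT BMM library. The drawn genes are a selection, and other listed genes of resorption went the other way between WT OB and WT BMM. Tcirg1, Clcn7, Tnfrsf11a, Mitf and Spi1 were lower in each WT OB library than in any WT BMM library (Tcirg1 198 to 250 against 499 to 619 CPM).

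Among the proteases, the 3 that define resorbing osteoclasts were highest in WT OC, and they were also present in WT OB. Ctsk (chr3:95499256-95509362) stood at 13488 to 14910 CPM (median 14371) in WT OC and 1821 to 2237 CPM (median 2135) in WT OB (log2 fold change -2.80, SE 0.06, adjusted p = 9.07e-18). In WT BMM it was at 6.86 to 10.4 CPM (median 7.75). Acp5 (chr9:22126727-22135711) was at 7060.3 to 7715 CPM (median 7257) in WT OC, 1263 to 1703 CPM (median 1557) in WT OB and 6.85 to 10.3 CPM (median 8.78) in WT BMM (log2 fold change -2.24, SE 0.06, adjusted p = 4.46e-16 for WT OB over WT OC). Mmp9, a gelatinase of osteoclasts, was at 6235 to 8312 CPM (median 6969) in WT OC, 803 to 1110.4 CPM (median 934) in WT OB and 0.1 to 0.727 CPM (median 0.349) in WT BMM (log2 fold change -2.91, SE 0.09, adjusted p = 1.62e-15). For all 3 the groups stood in the order WT OC, WT OB, WT BMM with no overlap. Of the remaining proteases, Ctsb (7781 against 8752 CPM, medians of WT OB and WT OC) and Ctsd (5666 against 5274 CPM), lysosomal cathepsins of most cells, overlapped between the groups. Ctsz, another lysosomal cathepsin, was at 752 to 863 CPM (median 783) in WT OB and 1628 to 1718 CPM (median 1643) in WT OC without overlap (log2 fold change -1.06, not shown to exceed 2-fold). Ctsl, for cathepsin L, was at 286 to 411 and 415 to 526 CPM, also without overlap (log2 fold change -0.48). Ctsd shares 27.3% of its words with other genes and is uncertain. Mmp14, a membrane-bound collagenase of both cell types, was at 80.6 to 165 CPM (median 139) in WT OB and 77.7 to 99.8 CPM (median 87.3) in WT OC, overlapping, with log2 fold change 0.63. Of the 8 proteases 6 were called higher in WT OC (38.2% of all genes were), 3 of them by more than 2-fold, and 2 (Mmp14 and Ctsd) were called higher in WT OB within 2-fold. Ctsd was not called in the fit of all 36 libraries. Without WT OB replicate 2, 4 or 6, Ctsb was not called (log2 fold change between -0.12 and -0.10). The protease list summed to 18313 to 21386 CPM in WT OB, 43533.5 to 47293 CPM in WT OC and 54227 to 62235 CPM in WT BMM. Ctsb (30793 to 37132 CPM) and Ctsd (20789 to 22784 CPM) were far higher in WT BMM than in the other groups.

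Acid secretion was the most uniform of the resorbing groups. All 8 genes were called higher in WT OC by more than 2-fold, beside 10.3% of all genes tested, and the list's median log2 fold change was -2.59. Tcirg1, the a3 subunit that carries the proton pump to the resorbing membrane, was at 1197 to 1383 CPM (median 1262) in WT OC and 198 to 250.4 CPM (median 223) in WT OB (log2 fold change -2.50, SE 0.06, adjusted p = 3.41e-17). Its osteoclast partner subunit gene Atp6v0d2 was at 1465 to 1619.7 CPM (median 1528) and 184 to 240.2 CPM (median 220.5) (log2 fold change -2.82, SE 0.06, adjusted p = 1.53e-17). Clcn7, the chloride antiporter that balances the charge of the pumped protons, was at 658 to 817 CPM (median 709.8) and 97.6 to 134 CPM (median 111). Car2, the carbonic anhydrase that supplies protons, was at 225 to 262 CPM (median 243) in WT OC, 14.9 to 27 CPM (median 24) in WT OB and 0 to 0.139 CPM (median 0.0284) in WT BMM (log2 fold change -3.39, SE 0.11, adjusted p = 5.28e-14 for WT OB over WT OC). Car2 had the lowest WT OB level of the 8 relative to WT OC, 9.89%, and Ostm1, the partner of the antiporter, the highest, 27.7%.

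The V-ATPase subunits that all cells use were called higher in WT OC in 16 of 16 cases tested, beside 38.2% of all genes. The difference exceeded 2-fold for 10 of them, beside 10.3% of all genes (list median -1.38). Atp6v1b2, the B subunit that osteoclasts use, was at 2460.3 to 2870.3 CPM (median 2524) in WT OC and 437 to 500.1 CPM (median 486) in WT OB (log2 fold change -2.42, SE 0.05, adjusted p = 7.84e-18). Atp6v1b1, the kidney form of the same subunit, reached at most 1 count in a WT OC library. Between the paralogs of the d subunit the difference was unequal: the WT OB median was 71.1% of that of WT OC for the widespread Atp6v0d1 and 14.4% for Atp6v0d2. Among the a subunits it was 71.1% for Atp6v0a1 and 17.6% for Tcirg1.

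Genes of cell fusion were called higher in WT OC in 8 of 8 cases, 6 by more than 2-fold (list median -1.43). Over all genes tested these shares were 38.2% and 10.3%. Dcstamp, a membrane protein required for fusion, was at 363 to 418 CPM (median 388) in WT OC, 12.8 to 21.3 CPM (median 19.3) in WT OB and 0.397 to 1.49 CPM (median 1.02) in WT BMM (log2 fold change -4.39, SE 0.10, adjusted p = 7.78e-17 for WT OB over WT OC). Ocstamp, its relative, was at 346 to 403 CPM (median 372) in WT OC and 32.8 to 58.6 CPM (median 41.8) in WT OB (log2 fold change -3.12, SE 0.11, adjusted p = 1.82e-13). Cd47, a widespread ligand of Sirpa, differed least, at 338 to 379.7 and 305 to 335 CPM (log2 fold change -0.15). The list summed to 4077 to 4302 CPM in WT OC, 1580 to 1909 CPM in WT OB and 4268 to 5363 CPM in WT BMM. Adam8 and Sirpa were higher in every WT BMM library than in any WT OC library. Dcstamp, Ocstamp, Cd44 and Cd109 were lower in every WT BMM library, and Cd9 and Cd47 overlapped.

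Receptors that carry the RANK and costimulatory signals were mostly higher in WT OC: 9 of 12 were called so, 7 by more than 2-fold. Of all genes tested 38.2% were called so, 10.3% by more than 2-fold. Tnfrsf11a, which encodes RANK, was at 129 to 156 CPM (median 135) in WT OC and 17.7 to 21 CPM (median 19.1) in WT OB (log2 fold change -2.85, SE 0.06, adjusted p = 1.09e-17). Oscar, an osteoclast receptor for collagen, was at 326 to 363 CPM (median 345) and 37.4 to 50.8 CPM (median 44.9), and in WT BMM at 0 to 0.0567 CPM (median 0). Calcr, the calcitonin receptor of mature osteoclasts, was at 30.4 to 38.2 CPM (median 33.5) in WT OC, 0.749 to 1.43 CPM (median 1.07) in WT OB and 0 in all WT BMM libraries (log2 fold change -4.92, SE 0.12, adjusted p = 5.48e-17 for WT OB over WT OC). Csf1r, the receptor for M-CSF, was at 1236 to 1520.5 CPM (median 1371) in WT OC, 591 to 713 CPM (median 691) in WT OB and 1634 to 1984 CPM (median 1863) in WT BMM. Unlike the first 3, it was highest in WT BMM. The list as a whole summed to 3712 to 3863 CPM in WT OC, 1958 to 2205 CPM in WT OB and 5463 to 6456 CPM in WT BMM. Trem2, a receptor of macrophages and osteoclast precursors, was the 1 member called higher in WT OB, at 273 to 321 CPM (median 305) against 215 to 250.3 CPM (median 236) (log2 fold change 0.36). The adaptor gene Fcer1g (log2 fold change -0.10, adjusted p = 0.144) and the kinase gene Tec (0.17, adjusted p = 0.0959) were not called. Without WT OB replicate 1 Tec was called higher in WT OB (log2 fold change 0.24), and without WT OC replicate 4 Fcer1g was called higher in WT OC (-0.16). Tec was also called with limma-voom and quality weights (0.20).

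Of the 13 transcription factors of osteoclasts, 11 were called higher in WT OC, 7 by more than 2-fold, beside 38.2% and 10.3% of all genes tested. Nfatc1, the factor that RANK-L induces to drive the osteoclast program, was at 579.8 to 924 CPM (median 856) in WT OC, 139.8 to 217 CPM (median 182) in WT OB and 96.5 to 125 CPM (median 107) in WT BMM (log2 fold change -2.13, SE 0.13, adjusted p = 3.34e-09 for WT OB over WT OC). Spi1, which encodes PU.1, was at 530 to 789.6 CPM (median 769) and 146 to 206 CPM (median 163), and Mitf at 108 to 129 CPM (median 113) and 22.3 to 27 CPM (median 24.6). Prdm1, a repressor of other macrophage fates, was at 45.4 to 61.4 CPM (median 49.4) and 8.29 to 11.2 CPM (median 10.7) (log2 fold change -2.33, SE 0.09, adjusted p = 6.44e-14). The AP-1 family did not move as 1: Fos was higher in WT OC (-1.18), Fosl2 was held within 2-fold (-0.28), and Fosl1, which encodes Fra-1, stood at 72.3 to 118 CPM (median 110.1) in WT OB and 1.87 to 2.68 CPM (median 2.28) in WT OC (log2 fold change 5.54, SE 0.13, adjusted p = 1.76e-16). Fosl1 shares 60.4% of its 31-base words with other genes, Ccdc85b on the opposite strand among those it overlaps, so its level is uncertain. Myc was not called (log2 fold change -0.09, adjusted p = 0.356).

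Podosome genes, which build the actin-rich adhesions of osteoclasts, were mostly higher in WT OC. Of 16, 14 were called higher in WT OC, 13 by more than 2-fold (list median -1.86), beside 38.2% and 10.3% of all genes tested. Itgb3, the β3 chain of the integrin with which osteoclasts hold bone, was at 443 to 605 CPM (median 495) in WT OC and 51.8 to 71.8 CPM (median 64) in WT OB (log2 fold change -2.99, SE 0.09, adjusted p = 1.15e-14). Its αv partner gene Itgav was at 694 to 836 CPM (median 728) and 127 to 158 CPM (median 149.5). Src, the kinase that osteoclasts need to resorb, was at 114 to 127 CPM (median 123) in WT OC, 20.9 to 30.5 CPM (median 23.6) in WT OB and 0.37 to 1.93 CPM (median 0.905) in WT BMM. These 3 were highest in WT OC with no overlap. Tln1 for talin (151 to 194 CPM in WT OB against 494 to 561 CPM in WT OC, log2 fold change -1.55) and Pxn for paxillin (67.4 to 90.9 against 236 to 297 CPM, -1.83), adhesion proteins of many cells, were also more than 2-fold higher in WT OC. The 2 called higher in WT OB were Cttn for the actin-binding protein cortactin (282 to 327 against 116 to 132 CPM, log2 fold change 1.33) and Vcl for vinculin (137 to 187 against 45.9 to 68.4 CPM, 1.38), both by more than 2-fold. Vcl overlaps Ap3m1 on the other strand and shares 39.4% of its words. The podosome list summed to 8309 to 9691 CPM in WT OC and 6927 to 8153 CPM in WT BMM. Of the genes called higher in WT OC, Fermt3, Ptk2b and Vav3 were higher in every WT BMM library than in any WT OC library. Lcp1, Was, Wipf1 and Tln1 overlapped between WT OC and WT BMM, and the others so called were lower in every WT BMM library.

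WT OB thus held messages of osteoclasts and macrophages beside those of osteoblasts. For the 8 defining osteoclast genes (Ctsk, Acp5, Mmp9, Calcr, Dcstamp, Ocstamp, Oscar and Atp6v0d2), the WT OB median was 3.2% (Calcr) to 21.5% (Acp5) of the WT OC median, with 13.2% in the middle. All 8 were above 0 in every WT OB library. For the 14 macrophage markers it was 20.9% (Ptprc) to 442% (Cx3cr1), with 109% in the middle. The marker list summed to 16367 to 20530 CPM in WT OB, 13736 to 16135 CPM in WT OC and 51793 to 63530 CPM in WT BMM, and none of its members was at 0 in WT OB. Lyz2, which encodes lysozyme M, was at 9987 to 13338 CPM (median 11792) in WT OB and 7010.1 to 9538 CPM (median 8685) in WT OC. It made up most of the sum in each group, and its level is uncertain (32.8% of its words shared). Of the 14, 7 were called higher in WT OB and 7 in WT OC (5 and 3 by more than 2-fold), beside 45.1% and 38.2% of all genes tested. Higher in WT OB were the complement genes C1qa (697 against 254 CPM, medians), C1qb and C1qc, the mannose receptor gene Mrc1 (382 against 157 CPM), Fcgr1, Lyz2 and Cx3cr1 (163 against 36.9 CPM). Ptprc, the pan-leukocyte marker CD45, was at 83.8 to 103 CPM (median 92.6) in WT OB and 395 to 484 CPM (median 444) in WT OC (log2 fold change -2.24, SE 0.07, adjusted p = 9.59e-16), and Cd68 and Itgam were likewise more than 2-fold higher in WT OC. The level of Itgam is uncertain, since it overlaps Gm49368 on its own strand and shares 68.2% of its words. The part of macrophage and osteoclast messages in the WT OB level of other genes was not tested.

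**Figure D2:**
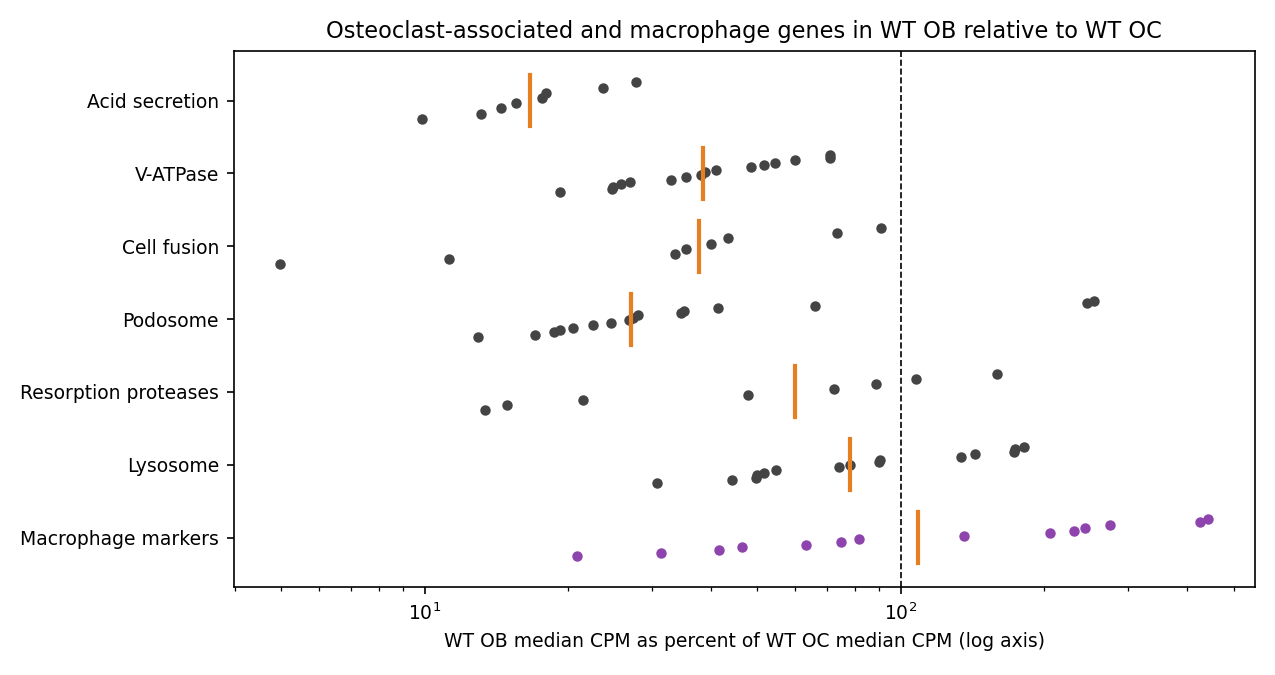
Median CPM of WT OB as a percent of the median CPM of WT OC (log axis), one point per gene, in 7 gene lists; the orange bar is the list's median and the dashed line marks equal levels. Acid secretion genes lie between 9.89% and 27.7%, V-ATPase genes between 19.3% and 71.1%, and the macrophage markers between 20.9% and 442%.

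Markers of other cell types were unevenly present. All 6 contractile and perivascular genes were called higher in WT OB, beside 45.1% of all genes tested, but at unequal levels. Acta2, the smooth muscle actin of myofibroblasts and pericytes, stood at 1202 to 1466 CPM (median 1279) against 0.644 to 0.96 CPM (median 0.849) in WT OC (log2 fold change 10.61, SE 0.09, adjusted p = 5.21e-22). In WT OB Tagln stood at 241 to 292 CPM and Cnn1 at 114 to 138 CPM. Mcam (5.75 to 11.0 CPM), Rgs5 (1.78 to 5.96 CPM) and Myh11 (1.19 to 2.38 CPM) were low there. All 5 cartilage markers were called higher in WT OB as well, beside 45.1% of all genes tested. In WT OB Col2a1 stood at 155 to 366 CPM (median 187) and Comp at 135 to 359.8 CPM (median 182). Acan, the cartilage aggrecan, was at 39.4 to 65.1 CPM (median 50.3) in WT OB and 0 counts in WT OC, and the hypertrophic marker Col10a1 had a WT OB median of 2.02 CPM. Together the cartilage list summed to 347 to 789 CPM in WT OB. Osteocyte markers summed to 1.92 to 7.03 CPM, with Sost and Fgf23 at 0. Of 10 fat cell markers, 4 passed the filter and Plin1, Cfd, Lep and Cidec were at 0 in both groups. Fabp4, a fatty acid carrier of fat cells and macrophages, was at 10.3 to 16.5 CPM (median 15) in WT OB and 1.46 to 2.78 CPM (median 1.97) in WT OC, and Cebpa, a transcription factor of fat and myeloid cells, at 7.34 to 10.7 CPM (median 9.28) and 2.75 to 5.46 CPM (median 4.11); both were called higher in WT OB. Lpl, a lipase of fat cells and macrophages, was at 848 to 991 CPM (median 881) in WT OC and 36.4 to 54.7 CPM (median 42) in WT OB, and Pparg, the fat cell regulator, at 7.66 to 10.6 CPM (median 8.52) and 2.24 to 4.06 CPM (median 3.19); both were called higher in WT OC. The neutrophil, lymphocyte and red cell lists summed to at most 2.66 CPM in any library. The part of cartilage or contractile cells in the collagen and matrix values of WT OB was not tested.

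Ligands known as signals from osteoblasts to osteoclasts were mostly higher in WT OB. Tnfsf11 (chr14:78277445-78308043), which encodes RANK-L, was at 17.1 to 40.3 CPM (median 32) in WT OB and 0 counts in all WT OC and WT BMM libraries, at least 203-fold higher than in WT OC. Its decoy receptor gene Tnfrsf11b, for osteoprotegerin, was at 116 to 161 CPM (median 142) in WT OB and had at most 1 count in a WT OC library. Csf1, which encodes M-CSF, was at 314 to 422 CPM (median 375) in WT OB and 0.657 to 1.46 CPM (median 1.35) in WT OC (log2 fold change 8.27, SE 0.12, adjusted p = 6.26e-20). Per length, the decoy stood at 60.6 to 83.9 TPM (median 73) in WT OB and the ligand it binds at 11.5 to 26.3 TPM (median 21.2), lower in every library. Il34, the other ligand of the M-CSF receptor, was at 12.9 to 18.1 CPM (median 16) in WT OB and 2.36 to 4.15 CPM (median 3.57) in WT OC. Cxcl12, a chemokine that holds blood precursors in marrow, was at 185 to 253 CPM (median 193) in WT OB. Of 10 ligands 9 passed the filter, and 8 were called higher in WT OB by more than 2-fold, beside 22.8% of all genes tested. Ccl2, a monocyte chemokine, was higher in WT OC (58.1 against 218 CPM, -1.84). Of the receptors, 5 of 8 were called higher in WT OB and 3 in WT OC, beside 45.1% and 38.2% of all genes tested. Plxna1, a co-receptor for semaphorins in osteoclasts, was higher in WT OC (log2 fold change -1.01), and Ror2, a receptor for Wnt5a, was at 6.72 to 18 CPM (median 14.9) in WT OB and 0 counts in WT OC.

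Signals in the reverse direction, from osteoclasts to osteoblasts, were looked at in the same way. Of 12 ligands 10 passed the filter: 4 were called higher in WT OC, 5 in WT OB, and Efnb2, an ephrin, was not called (log2 fold change -0.26, adjusted p = 0.0958, and called at -0.34 without WT OC replicate 3). These counts are near the shares of all genes tested, 38.2% and 45.1%. Sema4d, a semaphorin that restrains osteoblasts, was at 648 to 828 CPM (median 737) in WT OC, 63.4 to 88.8 CPM (median 76.2) in WT OB and 280.3 to 334 CPM (median 296) in WT BMM (log2 fold change -3.26, SE 0.08, adjusted p = 7.2e-17 for WT OB over WT OC). Pdgfb, which encodes a growth factor for mesenchymal cells, was at 22.2 to 30.8 CPM (median 26.9) in WT OC and 5.4 to 7.25 CPM (median 6.23) in WT OB (log2 fold change -2.06, SE 0.10, adjusted p = 9.72e-13). The cytokine gene Lif was also higher in WT OC (-0.78), as was Tgfb1 (-0.94), neither shown to exceed 2-fold. Cthrc1, often described as a coupling factor of osteoclasts, was at 857 to 1116 CPM (median 940.2) in WT OB and 10.8 to 12.8 CPM (median 12.3) in WT OC (log2 fold change 6.31, SE 0.08, adjusted p = 4.97e-21). Igf1 was at 449 to 678 CPM (median 593) and 121 to 143 CPM (median 132) (log2 fold change 2.11, SE 0.09, adjusted p = 1e-12), and WT BMM, at 1203 to 1357 CPM (median 1295), exceeded both. The receptors for these signals were called higher in WT OB in 11 of 13 cases, all 11 by more than 2-fold, beside 22.8% of all genes tested. Pdgfrb, the receptor for Pdgfb, was at 115 to 158 CPM (median 136) in WT OB and 0.253 to 0.684 CPM (median 0.358) in WT OC (log2 fold change 8.26, SE 0.14, adjusted p = 5.89e-19). Plxnb1, the receptor for Sema4d, was low, at 2.06 to 6.48 CPM (median 2.84) in WT OB, and had at most 2 counts in WT OC. The 2 exceptions were the TGF-β receptor genes Tgfbr1 (113 against 537 CPM, -2.26) and Tgfbr2 (-0.31).

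The listed respiratory chain genes were mostly higher in WT OC. Of 18 nuclear genes of the respiratory chain, 17 were called higher in WT OC and 0 in WT OB, 9 by more than 2-fold (list median -1.09). Of all genes tested 38.2% were called higher in WT OC, 10.3% by more than 2-fold. Outside the list, among genes high in both cultures, Ndufa3 (0.39) and Atp5e (0.24) were called higher in WT OB. Ndufc1 and Cox7c there were not called, and Uqcr10, Uqcr11, Uqcrq, Cox6a1 and Atp5l were called higher in WT OC. Cyc1, which encodes cytochrome c1, was at 414 to 448 CPM (median 429.6) in WT OC and 122 to 164 CPM (median 135) in WT OB (log2 fold change -1.64, SE 0.06, adjusted p = 2.54e-14), and Sdha, a subunit of succinate dehydrogenase, at 705 to 774 CPM (median 751) and 264 to 291 CPM (median 277). Cox6c overlapped and was not called (log2 fold change -0.01, adjusted p = 0.926). Of 13 glycolysis genes 9 were called higher in WT OB (45.1% of all genes were) and 3 in WT OC, and 10 were held within 2-fold. The 3 were Gpi1 (log2 fold change -0.46), Aldoa (-0.24) and Pkm (-0.27), and the sums over the list overlapped, at 17083 to 21003 CPM in WT OB and 18194 to 20112 CPM in WT OC. The glucose transporter gene Slc2a1 was at 337 to 493 CPM (median 443) in WT OB and 77.7 to 104 CPM (median 83.8) in WT OC (log2 fold change 2.32, SE 0.09, adjusted p = 7.44e-14), and Hk2, an inducible hexokinase, at 101 to 131 CPM (median 112) and 27.9 to 36.5 CPM (median 29.6). These 2, which carry glucose into the cell and trap it there, were the members more than 2-fold higher in WT OB. Among 15 lysosomal genes 10 were called higher in WT OC, 1 of them (Gusb, -1.70) by more than 2-fold. The other 5 were called higher in WT OB. Over all genes tested these shares were 38.2%, 10.3% and 45.1%. All 12 cell-cycle genes were called higher in WT OC, 10 by more than 2-fold, beside 38.2% and 10.3% of all genes tested. Mki67 stood at 85.2 to 102 CPM (median 92.6) in WT OC and 19.3 to 30.4 CPM (median 24.5) in WT OB.

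The 12 protein-coding genes with the largest differences toward WT OB, among those with a mean of at least 50 CPM there, had at most 14 counts in any WT OC library, and most encode secreted matrix proteins. They were the collagen genes Col1a2, Col3a1, Col5a2 and Col12a1, Ibsp, Lum, Fmod (fibromodulin, a small proteoglycan), Postn, Tmem45a, Rcn3, Igfbp2 and Itgbl1. Postn, which encodes the matrix protein periostin, was at 1496 to 1782 CPM (median 1594) in WT OB and 0 counts in WT OC, at least 10469-fold higher. Igfbp2, an IGF-binding protein, was at 231 to 398 CPM (median 314) and also at 0 counts in WT OC. Among genes with a mean of at least 50 CPM in WT OC, the 12 largest differences toward WT OC were far smaller in fold and ran from -4.91 to -4.06 on the log2 scale. Slc18a1, a vesicular monoamine transporter, was at 111 to 130.2 CPM (median 117) in WT OC and 3.46 to 4.42 CPM (median 3.94) in WT OB (log2 fold change -4.91, SE 0.07, adjusted p = 6.35e-20). Tfrc, the transferrin receptor that brings in iron, was at 1060.2 to 1340.4 CPM (median 1233) in WT OC, 43.6 to 67.6 CPM (median 56.7) in WT OB and 59 to 105 CPM (median 71.2) in WT BMM (log2 fold change -4.48, SE 0.10, adjusted p = 2.21e-16 for WT OB over WT OC). Bdh1, the enzyme that interconverts ketone bodies, was at 279.7 to 317 CPM (median 291) and 8.4 to 12 CPM (median 10.5), and Scin, an actin-severing protein, at 137 to 153 CPM (median 144) and 5.61 to 8.03 CPM (median 6.2). Itgb7, Slco4a1, Crybg1, Dcstamp, Akr1c18, Lpl, Atp8b4 and Gm14548 made up the rest, and Gm14548 is uncertain (83.9% of its words shared). All 12 had counts in every WT OB library.

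Genes high in both cultures were taken as those among the 200 with the highest mean TPM in each. There were 128, or 64% of each list. They held 29.7% to 31.7% of all TPM in WT OB and 33.4% to 35.2% in WT OC. Of the 128, 96 were held within 2-fold, 12 were more than 2-fold higher in WT OB and 8 more than 2-fold higher in WT OC. Over all genes tested these shares were 51.5%, 22.8% and 10.3%. Genes encoded in mitochondria, some of which ranked among the highest, were left out of those named. Of the rest the iron-storage genes led the list: Ftl1 at 27787 to 32316 TPM (median 30056) in WT OB and 39698 to 44996 TPM (median 40973) in WT OC, and Fth1 at 8728 to 11150 TPM (median 10647) and 8737 to 10288 TPM (median 9992). Lyz2 stood between them, at 12808 to 16674 TPM (median 15073) and 10229 to 13005 TPM (median 12048). Ftl1 was lower in WT OB in every library, and the TPM ranges of Fth1 and Lyz2 overlapped. Cytoskeletal genes followed, with Actb, for β-actin, at 6428 to 6911 TPM (median 6749.6) in WT OB and 11864 to 13269 TPM (median 12534) in WT OC, and Tmsb4x, for the actin-sequestering thymosin β4, overlapping. Other leading genes were Ctsd and Cd63 of the lysosome, Eno1, Aldoa and Pkm of glycolysis, the ubiquitin gene Ubb, Ppia for cyclophilin A, Lgals3 for galectin 3 and Gm29216. Eno1 was not called (log2 fold change 0.12, adjusted p = 0.0631), and with 1 library left out it became a call for WT OB replicate 1 (0.16) or 6 (0.14) or WT OC replicate 4 (0.13). It was also called with DESeq2 (0.13), DESeq2 size factors in edgeR (0.13), limma-voom with quality weights (0.16) and the replicate block (0.12). Ppia (-0.10, adjusted p = 0.364) became one without WT OC replicate 4 (-0.20), and Gm29216 (log2 fold change 0.48) was no longer called without WT OB replicate 4 (0.41), with the replicate block (0.46) or in the fit of all 36 libraries (0.42), where Fth1 also lost its call. Of the leading genes named Lgals3 was the 1 not held within 2-fold (log2 fold change -1.09). Gm29216 is annotated as a pseudogene and shares 97.2% of its 31-base words with other genes, and Ftl1 (48.8%), Lyz2 (32.8%), Cd63 (40.8%), Ubb (50.3%), Ctsd, Eno1 (27%) and Actb (23.9%) also pass the 20% above which a level is called uncertain.

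**Figure D3:**
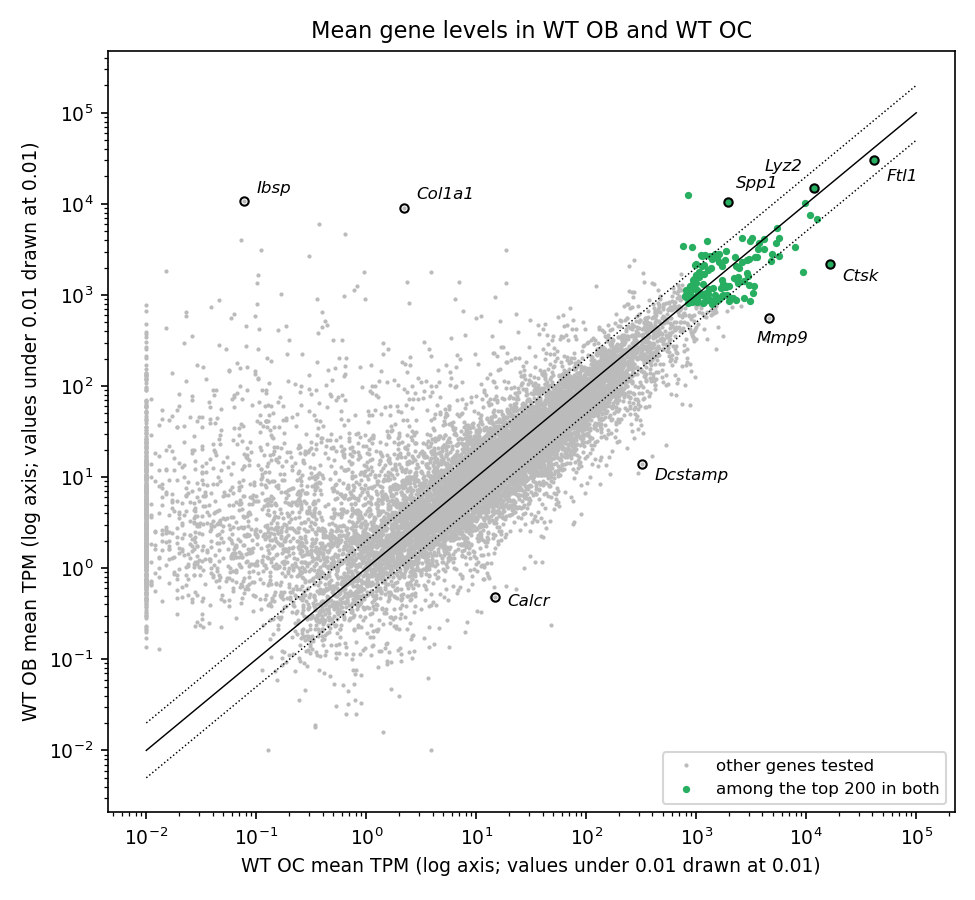
Mean TPM of WT OB (vertical) against WT OC (horizontal), both on log axes, for the 13462 genes tested; green points are the 128 genes among the top 200 of both, the solid line marks equal levels and the dotted lines 2-fold differences. Most green points lie between the dotted lines, Spp1 and Ctsk lie outside on opposite sides, and Ibsp and Col1a1 stand far above the line.

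By family, the shared genes comprised 19 for ribosomal proteins (15 held within 2-fold), 11 of the respiratory chain or ATP synthase (11 held), 8 encoded in mitochondria (6 held), 6 cathepsins (4 held), 3 V-ATPase subunits (0 held) and 81 others (60 held). These others included the macrophage markers Lyz2, Cd68, C1qb and C1qc and the receptor adaptor genes Tyrobp and Fcer1g. Being high in both did not make a gene equal in both. Spp1 stood at 6064 to 14381 TPM (median 10522) in WT OB and 1677 to 2085 TPM (median 1952) in WT OC. Ctsk stood at 1940.4 to 2311 TPM (median 2248) in WT OB and 15888 to 17388 TPM (median 16398) in WT OC. Acp5 was at 1489 to 2012 TPM (median 1814) and 9010.3 to 10358 TPM (median 9172). The matrix glycoprotein gene and the 2 resorption genes thus ranked in the top 200 of both cultures with opposite orders of level.

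Of 16 genes listed for a look at their transcripts, 10 had more than 1 transcript and a mean of at least 5 TPM in both groups. The share of a gene's TPM in its most abundant transcript differed for 5 of them (exact two-sided permutation test over the 6 and 6 libraries, adjusted over the 10; the smallest p it allows is 0.00216). Tpm1, which encodes α-tropomyosin of actin filaments, differed most. Tpm1-216 held 57.5% to 61.9% (median 60.2%) of Tpm1 TPM in WT OB and 0.396% to 1.41% (median 0.752%) in WT OC (exact permutation p = 0.00216, adjusted p = 0.00722). In its place Tpm1-212 held 50.3% to 59.4% (median 57.4%) in WT OC and 0.711% to 3.78% (median 3.2%) in WT OB. The 2 cultures thus expressed almost entirely different main transcripts of this gene. The other 4 differed by less: Slc4a2-201 held 52.9% ± 9.76 (SD, n = 6) of Slc4a2 in WT OB and 37.8% ± 2.43 in WT OC (exact permutation, adjusted p = 0.00722), and Src-201 held 22.8% ± 8.71 and 40.2% ± 11.8 (adjusted p = 0.026, exact permutation). Src did not pass with shares of estimated counts in place of TPM (-14.7 points), nor without WT OB replicate 1, 4, 5 or 6 or WT OC replicate 3 or 6, when its difference lay between -17.4 and -13.4 points. Nfatc1-201 held 64.8% ± 2.3 and 70.5% ± 1.05 (exact permutation, adjusted p = 0.00722), and Spp1-201 79.5% ± 1.55 and 76.1% ± 1.33 (exact permutation, adjusted p = 0.0162). Acp5-202 held 82.9% ± 1.34 of Acp5 in WT OB and 83.2% ± 0.774 in WT OC, a difference of -0.365 points (exact permutation, adjusted p = 0.633). By these estimated shares the transcript whose promoter is printed above was the main one of Acp5 in both cultures. The use of transcription starts itself was not measured.

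**Figure D4:**
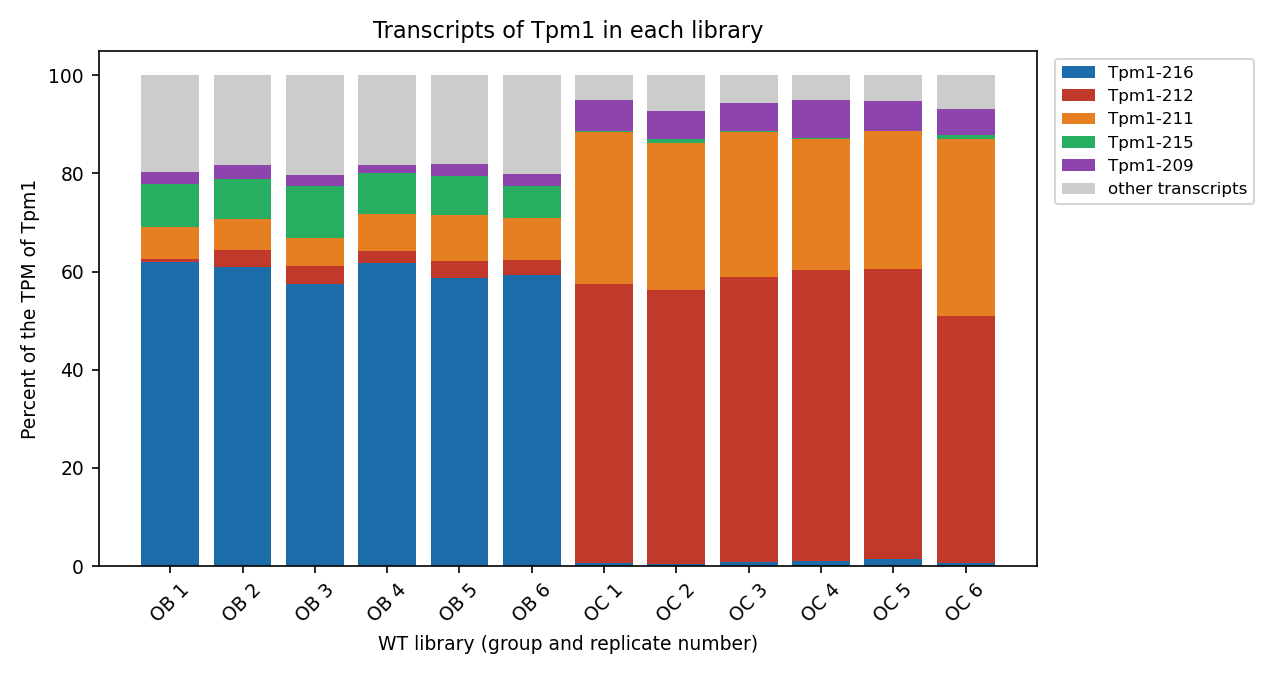
Share of each Tpm1 transcript in the gene's TPM (percent, stacked to the whole) in the 6 WT OB and 6 WT OC libraries, with the 5 most abundant transcripts coloured. Tpm1-216 fills over 57% of every WT OB bar, and Tpm1-212 over 50% of every WT OC bar.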

How the data were processed

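Total RNA of 12 libraries (6 WT OB, 6 WT OC) and, for reference, 6 WT BMM was analysed. Per the file headers, the authors deposited estimated counts and TPM for each of 88198 transcripts in each library. Kallisto and DESeq2 are the tools that the submitters' processing notes name. These notes name build GRCh38, a human build, although the transcript identifiers are mouse ones. The labels' protocols give the library kit but no strand setting, so reads of overlapping genes on opposite strands may not be told apart. Such overlap alone did not make a gene uncertain here, since only the share of words found in other genes' transcripts was used. Csf1r, for example, overlaps Hmgxb3 on the opposite strand, shares 17.4% of its words and was not called uncertain.

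Transcripts were matched to GENCODE M21 (GRCm38), with 97.5% found and 0.685% to 0.797% of counts unmatched, and the estimated counts were summed per gene and rounded. Genes were kept by filterByExpr, scaled by TMM and tested in edgeR 4.0.16 (R 4.3.3) by the robust quasi-likelihood F test, and by glmTreat for differences over 2-fold, with Benjamini-Hochberg adjustment over all 13462 genes and a threshold of 0.05. The code was tested on simulated data. limma 3.58.1 and DESeq2 1.42.0 served as alternatives, beside other scalings and filters, a transcript-length offset, all 36 libraries in 1 fit, a replicate block and leaving out each library. Replicates differed beyond counting noise (lowest chi-square per gene 3.34), with biological coefficients of variation of 12.7% in WT OB and 9.41% in WT OC.

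Genes are named from lists by role, from the 12 largest differences in each direction and from the 15 leading genes high in both, 1 of which is not reported here. The members and lists were chosen with earlier results of these data known, so they are descriptions and not independent tests. Genes with 20% or more of their 31-base words in other genes' transcripts are called uncertain: 26 of 335 listed. Floors of 3 counts per library cover counting error only. Protein comparison was not run, and the null libraries were not analysed here beyond the fit of all 36.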

Additional observations from a re-analysis of the deposited data

Results flagged for a closer look

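In 23 of 301 groups of 6 values of the genes named, 1 library lay far from the other 5, judged by its gap to the nearest of them against Dixon's 95% critical value. Chance flags about 1 in 20 groups, and the genes are not independent. WT OC replicate 4 accounted for 10 of the 23, with Acp5 (7715 CPM, the others 7060.3 to 7293), Atp6v1b2 (2870.3 CPM, the others 2460.3 to 2605), Cd68 (2466 CPM, the others 2171 to 2219.7) and Clcn7 (817 CPM, the others 658 to 714) among them. The others of this library were Ctsd (5439 CPM, the others 5230.4 to 5291), Lox (22.3 CPM, the others 16.9 to 18.7) and Mitf (129 CPM, the others 108 to 114). It was likewise apart for Ppia (984 CPM, the others 1432 to 1671), Slc20a1 (70.006 CPM, the others 56.2 to 59.9) and Tpm1 (327 CPM, the others 298 to 306). WT OB replicate 6 stood apart for 5 genes, namely Alpl (416 CPM, the others 163 to 239), Atp6v1b2 (437 CPM, the others 483 to 500.1), Col2a1 (366 CPM, the others 155 to 210.1), Dmp1 (6.3 CPM, the others 1.4 to 1.91) and Efnb2 (4.3 CPM, the others 3.32 to 3.53). For WT OB replicate 1 the genes were Fosl1 (72.3 CPM, the others 103 to 118), Gm29216 (508 CPM, the others 852 to 1046), Pkm (3704 CPM, the others 4330.5 to 4525) and Tpm1 (1009 CPM, the others 788 to 862). WT OB replicate 2 was high for Cxcl12 (253 CPM, the others 185 to 209). In WT OC replicate 5 the values were those of Col1a2 (0.735 CPM, the others 0.0456 to 0.268) and Prdm1 (61.4 CPM, the others 45.4 to 50.6). The remaining one was WT OC replicate 2, for Tgfb1 (9.19 CPM, the others 7.14 to 7.73). For Alpl, Col2a1 and Dmp1 the other 5 WT OB libraries also lay above every WT OC library. What sets these libraries apart was not tested.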

How the results depend on the processing

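Across the other settings tried, 1 of them added after seeing the data (both libraries that stand apart, WT OB replicate 1 and WT OC replicate 4, left out together), 3362 of 3406 comparisons for 156 named genes kept their direction and their side of the threshold. With a library left out, genes called higher in WT OB ranged from 6031 to 6159 and in WT OC from 5076 to 5192. With no filter, 12770 of 20764 genes were called. Deviations of same-numbered libraries from their group means correlated at -0.0587 to 0.0194, and no library matched its own number best. Between 2 unlike cultures such values cannot tell whether same-numbered libraries came from the same animal. With the replicate block 11083 genes were called, against 11217, and Cox6c turned from -0.01 to 0.018. Without 1 library Cox6c lay between -0.133 and 0.0448, so its sign depended on the library left out. With both libraries that stand apart left out, Cox6c (-0.17), Ppia (-0.22) and Fcer1g (-0.19) were called higher in WT OC. In that setting Eno1 (0.17) and Tec (0.22) were called higher in WT OB. Among list counts, the fit of all 36 libraries gave 2 mineral matrix genes higher in WT OC, 1 protease higher in WT OB, 1 osteocyte gene and 1 lymphocyte gene higher in WT OC, and 2 neutrophil genes and 1 red cell gene higher in WT OB. A minimum mean of 10 counts gave 2 mineral matrix genes and 1 osteocyte gene higher in WT OC. No filter gave 2 mineral matrix genes higher in WT OC, 2 osteocyte genes in each direction, and 2 neutrophil genes and 1 red cell gene higher in WT OB. Voom with quality weights, and leaving out both libraries that stand apart, gave 2 RANK and costimulatory genes higher in WT OB. Leaving out 1 library gave 1 to 2 mineral matrix genes higher in WT OC, 0 to 1 osteoblast factors, 0 to 1 osteocyte genes, and 1 to 2 RANK and costimulatory genes higher in WT OB. With shares of estimated counts in place of TPM, the difference for the main transcript became 0.133 points for Cd44 and -0.31 for Atp6v0a1. With 1 library left out it lay between -1.41 and 0.0791 for Cd44 and between -0.67 and 0.0014 for Acp5. None of these 3 passed the test in any of these settings. Unless a filter changed the genes tested, the cause was not tested. Among the top lists by TPM, 54% to 69.2% of genes were shared under other list sizes and units.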
